A study of Mus musculus with 36 samples.

Results

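The genes described here make cholesterol and fatty acids or sense, carry and turn over sterols. They are a list of 31 symbols, chosen by name with earlier results of these data known. All 31 were present among the 24421 gene symbols in the deposited tables. The study sequenced polyA RNA from mouse hippocampus in 6 groups, each with 3 female libraries (F1 to F3) and 3 male libraries (M1 to M3). The aging arm held C57BL/6 mice at 8 months (young), at 18 months (old) and at 18 months after nanoligomer treatment (old treated). The transgenic arm held 4-month-old mice: "non-carrier" littermates, APP/PS1 mice, and APP/PS1 mice given nanoligomer (APP/PS1 treated). APP/PS1 mice carry transgenes for human amyloid precursor protein and presenilin 1 and deposit amyloid β in the brain. Nanoligomers are short synthetic molecules made to lower chosen transcripts, and the series title names NF-κB and NLRP3. No source used here states the dose, duration or route of treatment, or the promoter of the transgenes. Each treated group is compared with the untreated group of its own genotype and age.

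Brain cholesterol is made almost wholly within the brain, because lipoproteins do not cross the blood-brain barrier in quantity. Acetyl-CoA units are joined and reduced to mevalonate, built up through isoprenoid phosphates to squalene, and closed into sterol rings that are then trimmed to cholesterol. When sterol in the endoplasmic reticulum is low, SCAP carries the SREBP factors to the Golgi, where they are cut and released to switch on these enzymes, and INSIG holds SCAP back when sterol is high. In adult brain, astrocytes and oligodendrocytes make most of the sterol, and neurons clear the excess through 24-hydroxylation by Cyp46a1.

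The stretch of DNA just before the start of these genes is where sterol-responsive factors are known to bind, and 24 of the 31 genes had a RefSeq promoter entry (30 start sites, assembly GRCm38.p6). The 250 bases before each start were searched on both strands for the sterol regulatory element TCACNCCAC, the NF-Y box CCAAT, the Sp1 box GGGCGG and the E-box CACGTG, each counted by itself, so that matches of different motifs can share bases. CCAAT was found in 73.3% of the members' windows and in 33.8% of all 32851 windows. GGGCGG was found in 76.7% against 32.7%, and CACGTG in 20% against 6.02%. TCACNCCAC was found in 1 window, that of Hmgcs1, and in 1.05% of all windows. These are exact matches of letters, so variants of the sterol element that differ by a base were not counted, and no binding was measured. The window of Hmgcs1 is shown because its test turned on 1 library and because it holds the single TCACNCCAC match. Those of Mvk, Mvd and Fasn are shown because Mvk had 5 CCAAT boxes, Mvd had 2 and one of the smallest p-values among treated old mice, and Fasn had 3 and the smallest p-value with age. All are written 5′ to 3′ on the gene's strand, and capitals mark TCACNCCAC and CCAAT in either orientation.
Hmgcs1 (chr13:119690101-119690350, plus strand): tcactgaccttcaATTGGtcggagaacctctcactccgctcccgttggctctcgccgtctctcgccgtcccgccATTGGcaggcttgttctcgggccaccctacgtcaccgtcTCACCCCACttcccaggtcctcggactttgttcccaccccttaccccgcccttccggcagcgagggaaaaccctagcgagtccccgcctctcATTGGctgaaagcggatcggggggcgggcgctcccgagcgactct
Mvk (chr5:114444019-114444268, plus strand): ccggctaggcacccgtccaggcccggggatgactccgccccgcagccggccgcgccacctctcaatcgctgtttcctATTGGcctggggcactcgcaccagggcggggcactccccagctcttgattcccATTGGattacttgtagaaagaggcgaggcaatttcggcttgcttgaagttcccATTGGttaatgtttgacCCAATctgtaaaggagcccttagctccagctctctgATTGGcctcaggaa
Mvd (chr8:122443423-122443672, minus strand): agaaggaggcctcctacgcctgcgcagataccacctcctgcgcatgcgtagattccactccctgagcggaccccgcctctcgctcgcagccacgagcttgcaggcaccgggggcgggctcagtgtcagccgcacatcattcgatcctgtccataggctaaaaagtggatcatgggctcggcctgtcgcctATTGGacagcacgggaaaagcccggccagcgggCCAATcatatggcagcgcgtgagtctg
Fasn (chr11:120824548-120824797, minus strand): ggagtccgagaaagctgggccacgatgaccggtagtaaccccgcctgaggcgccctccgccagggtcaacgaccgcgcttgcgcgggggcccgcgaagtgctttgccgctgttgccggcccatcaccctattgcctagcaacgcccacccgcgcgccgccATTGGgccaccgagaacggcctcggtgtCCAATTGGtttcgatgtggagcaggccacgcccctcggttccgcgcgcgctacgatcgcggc
In the Hmgcs1 window the element reads TCACCCCAC and begins at base -137 from the start site, and 3 CCAAT boxes stand in the same window.

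The 35 libraries used held 27.6 to 46.3 M reads assigned to genes. The remaining library, APP/PS1 treated F3, held 0.913 M reads and was left out of every comparison, so that group has 5 libraries. All hippocampal neuron markers were detected, and their summed level was 1799 to 2858 CPM, counts scaled to the library total, in 33 of the 35 libraries. It was 690 CPM in APP/PS1 F1 and 872 CPM in young M1. Striatal markers summed to 2357 CPM in APP/PS1 F1 against 119 to 2327 in the 33, with a median of 163, and choroid plexus markers to 4215 CPM in young M1 against 14.4 to 4068. In each of the 10 marker lists every gene was measured, and no gene was at 0 throughout. Results that rest on young M1 and APP/PS1 F1 are given with and without them. Striatal sums also reached 2327 CPM in old treated F3, 1339 in young M2 and 1155 in APP/PS1 treated M2. Choroid plexus sums also reached 4068 in APP/PS1 treated F1. Their medians were 1342 in young, 108 in old, 101 in old treated, 120 in littermate, 39.8 in APP/PS1 and 294 in APP/PS1 treated libraries. The part of these in the comparisons was not tested, beyond leaving out each library in turn. The labels do not say in words that each library came from its own animal, so p-values measure the spread between these libraries. In whole tissue, fewer cells of a type and less RNA per cell cannot be told apart.

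All 31 genes were detected in each of the 35 libraries. Levels were compared between genes as RPKM, the CPM divided by the annotated exon length in kilobases, and given as means over the 35 libraries. Scd2, the main stearoyl-CoA desaturase of brain, was highest at 268 RPKM (219 to 402). Cyp46a1, the neuronal cholesterol 24-hydroxylase, followed at 73.0 RPKM, and Hmgcs1, which makes HMG-CoA, at 44.3 RPKM. Scd1, the related desaturase, stood at 41.0, the factor Srebf2 at 40.7 and the fatty acid synthase Fasn at 37.8 RPKM. At the low end were Lbr, a C14 sterol reductase of the nuclear envelope, at 2.14 RPKM, and Stard4, a cytosolic sterol carrier, at 1.86 RPKM. Squalene synthase Fdft1 stood at 21.8 RPKM and squalene epoxidase Sqle, the next step, at 9.67.

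**Figure D1:**
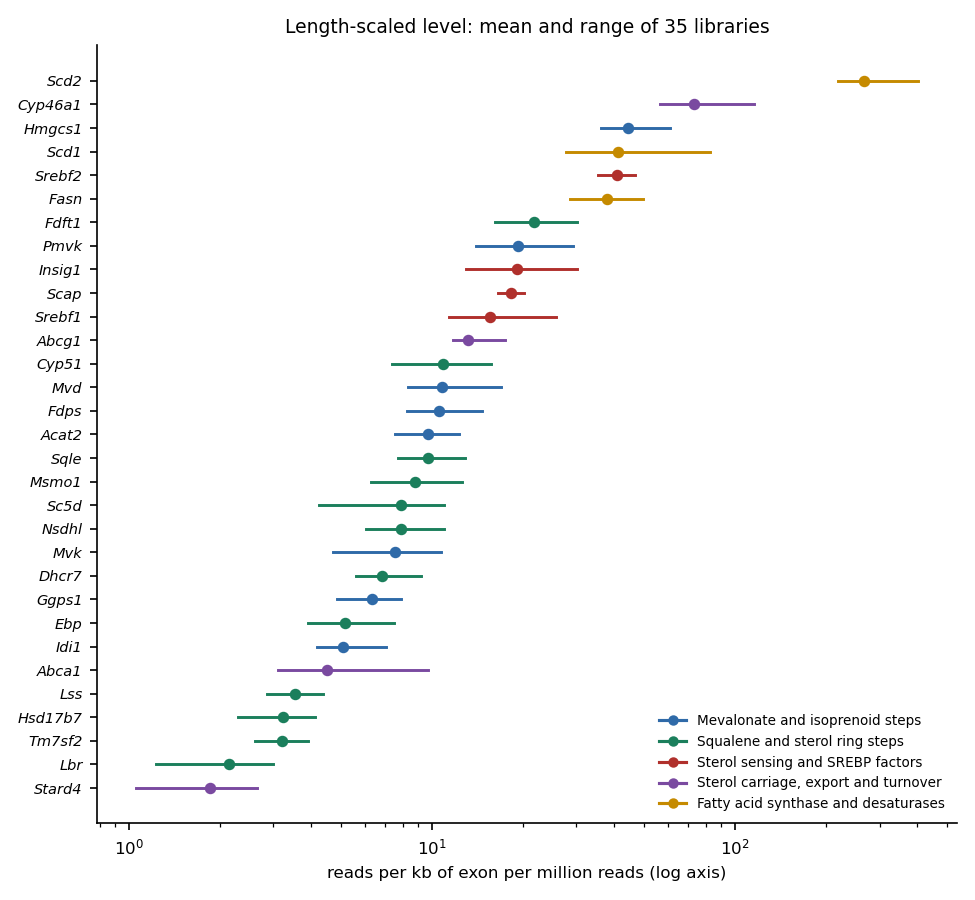
Level of each of the 31 genes on a log axis, in RPKM. Points are means of 35 libraries and bars run from the lowest to the highest library. Scd2 (268) stands far above Cyp46a1 (73.0), and Stard4 (1.86) is lowest.

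The genes differed in how steady they were from library to library. Scap, the SREBP escort, had the lowest coefficient of variation over the 35 libraries, at 5.02%. Abca1, the cholesterol exporter, had the highest at 26.4%, followed by Scd1 at 25.2% and Stard4 at 20.8%. Sc5d, the lathosterol desaturase, stood at 6.04 ± 0.991 RPKM (SD, n = 6) in littermates and 9.18 ± 1.07 in young C57BL/6 mice. These groups differ in age and arm, which cannot be told apart, and they were not tested against each other.

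No member passed the test in any of the 4 comparisons the design holds. Each was made on log2(normalized count + 1) with limma, a sex term and Benjamini-Hochberg adjustment over all genes of its table. The background was as sparse: with age 6 of 16626 genes were called (0.0361%), with nanoligomer in old mice 0 of 16517 (0%), with the transgenes 8 of 16475 (0.0486%), and with nanoligomer in APP/PS1 mice 0 of 16124 (0%). edgeR on the recovered reads also called 0 members in each. DESeq2 called 0, 0, 1 and 0 members in the same order, against 0.742%, 0.0122%, 1.54% and 0.0436% of all genes. The 95% limits of the estimate lay within 1.5-fold either way for 31, 31, 29 and 30 of the 31 members, against 69.6%, 68.8%, 64.8% and 64.3% of all genes. All genes here reach down to a mean of 10, below the level of any member. No background matched by level was made for this share.

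**Figure D2:**
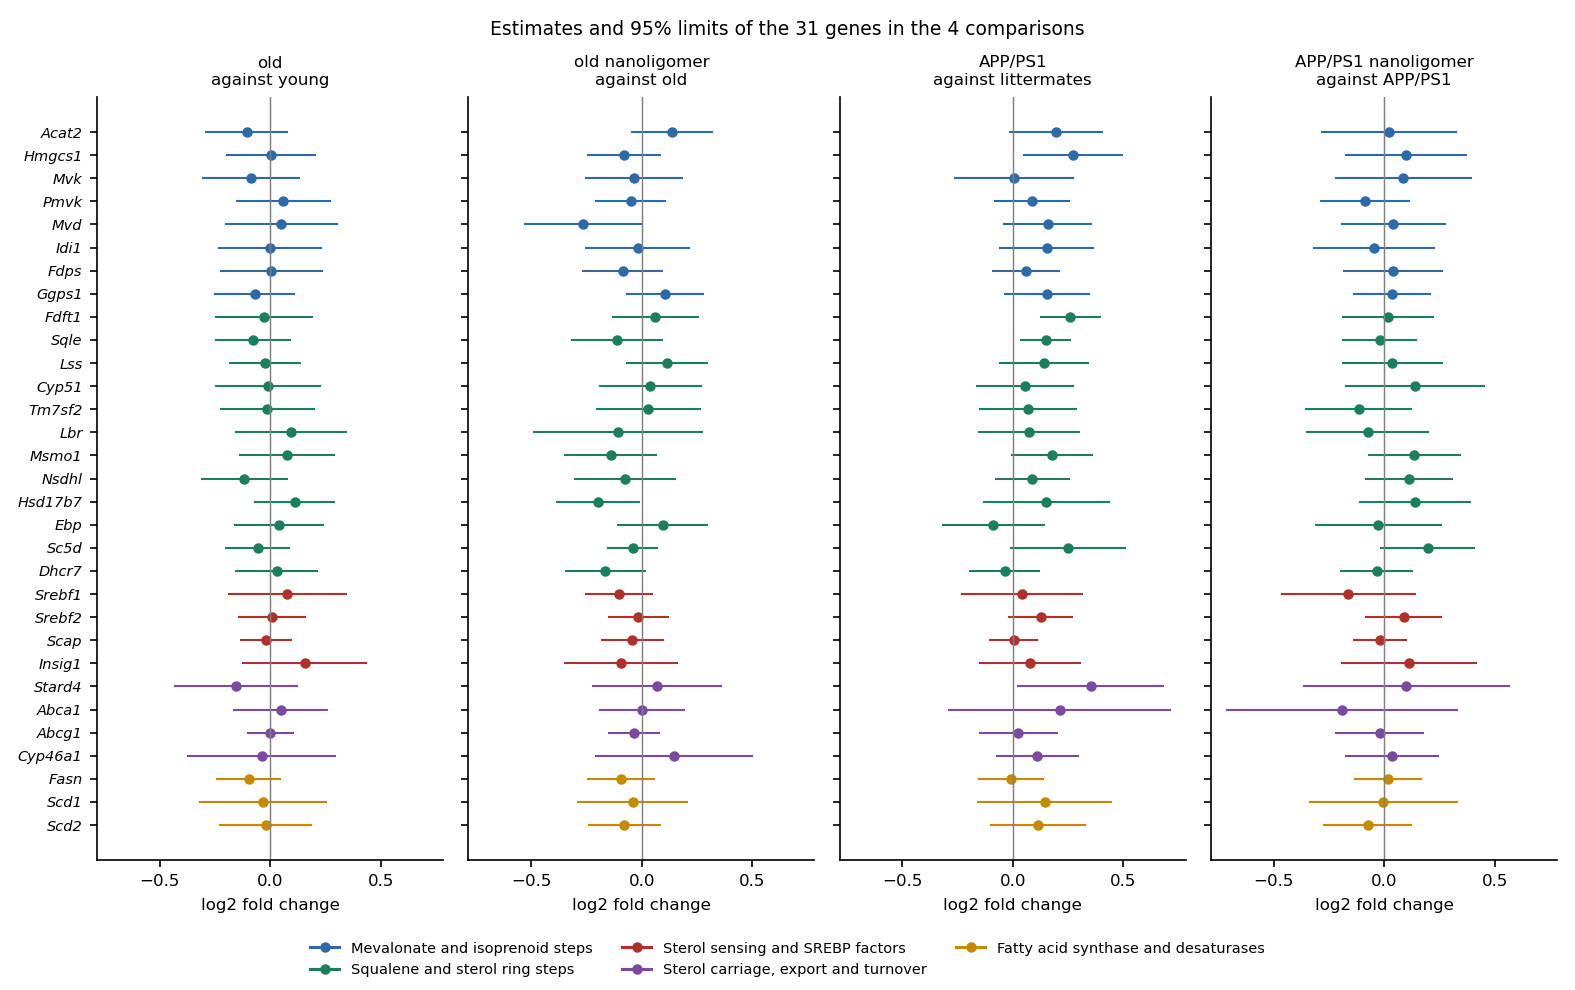
Log2 fold change of each of the 31 genes in the 4 comparisons, with 95% limits from limma, genes ordered by role. Most intervals cross 0. In APP/PS1 mice 28 of 31 estimates lie above 0, against 14 with age, 10 with nanoligomer in old mice and 18 with nanoligomer in APP/PS1 mice.

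APP/PS1 mice against littermates asked what the transgenes do at 4 months. Estimates lay above 0 for 28 of 31 members, with a median log2 difference of 0.11, beside 50.3% and a median of 0.00 for all genes. Members of a pathway are not independent, and the list was chosen with earlier results of these data known, so the count is a description. The mevalonate and isoprenoid steps had 8 of 8 estimates above 0 (median 0.15) and the squalene and ring steps 10 of 12 (median 0.11). Carriage, export and turnover genes had 4 of 4 (median 0.16), sensing genes 4 of 4 (median 0.06) and the fatty acid genes 2 of 3 (median 0.11). At an unadjusted p under 0.05, 4 members were higher and 0 lower, where 4.72% of all genes were higher and 5.46% lower. Those 4 were Fdft1, Sqle, Hmgcs1 and Stard4.

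Fdft1, which joins 2 farnesyl groups into squalene (chr14:63145150-63179578, minus strand), ran from 2506 to 3224 normalized counts in littermates (median 2716) and from 3120 to 3484 in APP/PS1 mice (median 3331). The groups met only in littermate F1, the highest of its group. Means were 2778 ± 251 and 3318 ± 129 (SD, n = 6 each), a log2 difference of 0.26 ± 0.062 (SE; limma adjusted p = 0.196). DESeq2 gave an adjusted p of 0.0215. Without APP/PS1 F1 the difference was 0.28 ± 0.064 (limma adjusted p = 0.114). Annotated exons of Fdft1 share 774 bases (18.3%) with the cathepsin gene Ctsb on the opposite strand. Ctsb itself stood at 17222 ± 750 and 21180 ± 3749, a log2 difference of 0.28 ± 0.088 (limma adjusted p = 0.289). No source used here states whether the counting used strand, so reads of the shared stretch cannot be told apart.

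Sqle, the oxygen-dependent epoxidase that follows squalene synthase (chr15:59315077-59331192, plus strand), ran from 1706 to 1872 in littermates (median 1849) and from 1908 to 2095 in APP/PS1 mice (median 2014). It was the only member whose groups did not overlap, beside 0.437% of all genes higher and 0.413% lower without overlap. As CPM the groups did meet, at 46.1 to 51.8 in littermates and 50.4 to 60.9 in APP/PS1 mice. Means were 1820 ± 65.2 and 2016 ± 68.2, a log2 difference of 0.15 ± 0.052 (limma adjusted p = 0.357), and 0.14 ± 0.056 without APP/PS1 F1 (limma adjusted p = 0.355).

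Hmgcs1, the cytosolic HMG-CoA synthase that opens the mevalonate route (chr13:119690379-119708260, plus strand), ran from 6457 to 7276 in littermates (median 6853). The APP/PS1 libraries held 5977 in F1 and 7956 to 10132 in the other 5. So F1 was the lowest of all 12, and the rest lay above every littermate. With all 6 the means were 6874 ± 287 and 8393 ± 1378, a log2 difference of 0.27 ± 0.103 (limma adjusted p = 0.388). F1 had the lowest hippocampal neuron marker sum of the 35 libraries. Abundant genes weigh most in such a sum, and single markers were not compared. Without F1 the mean was 8876 ± 789 (n = 5) and the log2 difference 0.37 ± 0.063. The limma adjusted p was 0.0391, when 21 of 16434 genes were called (0.128%). Every library was left out in turn, and this one is given here because of its markers. Exons of Hmgcs1 share 12.1% of their length with an annotated antisense transcript, Gm48342.

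Stard4 ran from 219 to 412 in littermates (median 313) and from 314 to 480 in APP/PS1 mice (median 411). The groups overlapped over much of that range. Means were 314 ± 67.9 and 398 ± 68.2, a log2 difference of 0.35 ± 0.151 (limma adjusted p = 0.452). Without APP/PS1 F1 it was 0.28 ± 0.150 and no longer under 0.05 unadjusted (limma unadjusted p = 0.0824, adjusted p = 0.501). Stard4 had the largest estimate of the 31 with all libraries, and Hmgcs1 without F1.

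The regulators were tested beside their targets. Srebf2, the factor for the sterol genes, ran from 9251 to 10692 in littermates (median 9534) and 9164 to 11544 in APP/PS1 mice (median 10636), a log2 difference of 0.13 ± 0.067 (limma adjusted p = 0.560). Without APP/PS1 F1 it was 0.17 ± 0.057 (limma unadjusted p = 0.0113, adjusted p = 0.259). Srebf1, the factor for the fatty acid genes, ran from 2523 to 3198 in littermates (median 3031) and 2558 to 4497 in APP/PS1 mice (median 2925), a log2 difference of 0.04 ± 0.125. The top Srebf1 value was again F1, and without it the estimate was -0.08. Scap gave 0.00 ± 0.049 and Insig1, itself a target of SREBP, 0.08 ± 0.105, the latter 0.02 without F1. In all 4 genes the groups overlapped.

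Without APP/PS1 F1, 25 of 31 estimates lay above 0, beside 50.5% of all genes, Mvk, Srebf1 and Abcg1 having moved below 0. At an unadjusted p under 0.05, 6 members were higher, beside 5.89% of all genes: Fdft1, Sqle, Hmgcs1, Srebf2, Msmo1 and Mvd. Marker sums in the 2 groups also moved. Hippocampal neuron markers ran from 690 to 2495 CPM in APP/PS1 mice and from 1962 to 2324 in littermates. General neuron markers (8 of 8 measured) ran from 5173 to 8533 in APP/PS1 mice, with 4 of 6 libraries above every littermate, and from 6384 to 7263 in littermates, with medians of 7864 and 6851. Striatal markers (7 of 7) ran from 163 to 2357 against 119 to 179, microglial markers (7 of 7) from 298 to 680 against 310 to 364, and astrocyte markers (10 of 10) from 5220 to 7360 against 5969 to 6977. The highest microglial sum was in APP/PS1 F3. For correlations a list was scored as the mean of its genes' log2 deviations, each gene counting alike, and not as the sum. The 2 farthest libraries are those farthest from the median of that score, whatever the value of the gene set against it. Within group and sex over all 35 libraries, Hmgcs1 had r of 0.557 and rho of 0.360 with the general neuron markers (permutation p = 0.09 and 0.12, adjusted over 70 relations 0.38 for each), and r was 0.282 without the 2 farthest libraries. Srebf2 had r of 0.608 and rho of 0.573 (permutation p = 0.0048 and 0.0063, adjusted p = 0.084 and 0.085), and 0.527 without the 2 farthest. With the hippocampal neuron markers both genes had r below 0. For Hmgcs1 r was -0.257 and rho -0.336 (permutation p = 0.3 and 0.13, adjusted p = 0.58 and 0.39). For Srebf2 r was -0.5425 and rho -0.4395 (permutation p = 0.044 and 0.057, adjusted p = 0.29 and 0.31). Without young M1 and APP/PS1 F1 these r values were -0.628 and -0.709. The part of these in the result, beyond leaving out F1, was not tested.

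**Figure D3:**
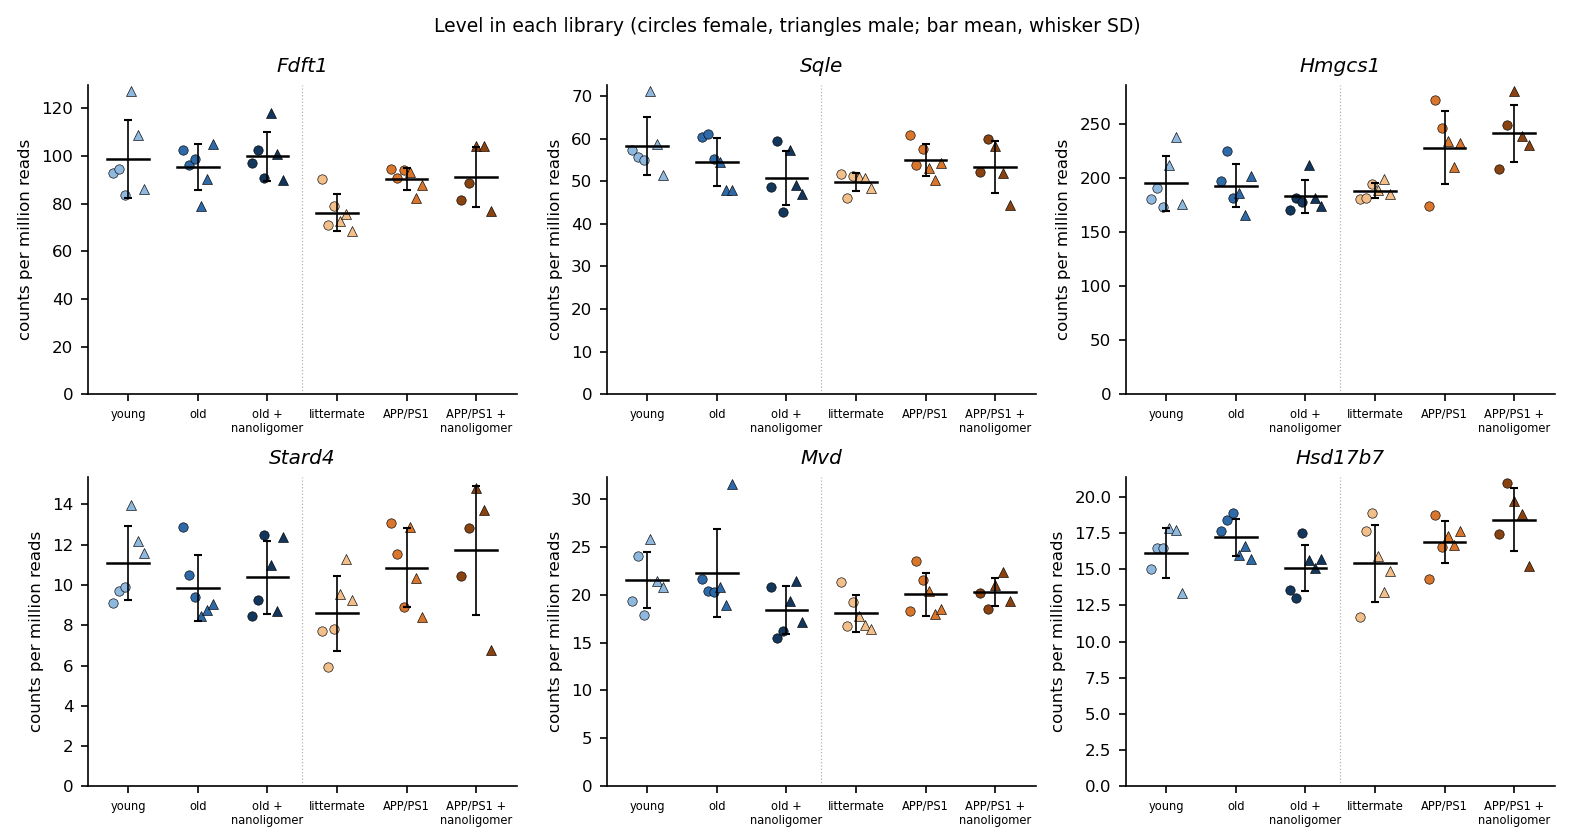
CPM of Fdft1, Sqle, Hmgcs1, Stard4, Mvd and Hsd17b7 in each library of the 6 groups. Circles are females, triangles males, bars the mean and whiskers the SD. In Hmgcs1 the library APP/PS1 F1 lies below the other 5 of its group, and in Mvd the library old M3 lies above its group.

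Old against young mice asked what 10 further months do in C57BL/6 mice. Estimates lay above 0 for 14 of 31 members, beside 48.6% of all genes, and the median was -0.01. Without old M3 the count was 8. At an unadjusted p under 0.05, 0 members were higher and 0 lower, where 3.37% of all genes were higher and 2.77% lower. The mevalonate steps were split 4 and 4 and the ring steps 5 and 7, while the 3 fatty acid genes all had estimates below 0 (median -0.03). That shared direction rested on young M1, the highest young library for all 3: without it Scd1 stood at 0.10, Scd2 at 0.06 and Fasn at -0.05.

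The smallest p-value was that of Fasn, the multi-domain enzyme that builds palmitate (chr11:120805846-120824547, minus strand). It ran from 16371 to 20433 in young mice (median 16726) and from 15335 to 16995 in old mice (median 16230). The highest value was young M1, and the others overlapped. Means were 17355 ± 1531 and 16188 ± 737, a log2 difference of -0.10 ± 0.066 (limma adjusted p = 0.860), and -0.05 without young M1.

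Hsd17b7, a 3-keto sterol reductase, ran from 536 to 735 in young mice (median 661) and 636 to 767 in old mice (median 699), a log2 difference of 0.11 ± 0.082 (limma adjusted p = 0.867). Nsdhl, which acts beside it in removing the C4 methyl groups, ran from 851 to 1174 (median 982) and 864 to 1057 (median 912), a difference of -0.12 ± 0.088 (limma adjusted p = 0.868). Acat2, the cytosolic acetyl-CoA acetyltransferase at the head of the route, ran from 900 to 1174 (median 1033) and 863 to 1102 (median 950), a difference of -0.11 ± 0.084 (limma adjusted p = 0.876). In each the groups overlapped, and reads of Acat2 may be shared with its near copy Acat3. The estimates of Hsd17b7 and Nsdhl lay on opposite sides of 0, but neither passed and their difference was not tested.

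Insig1 ran from 2029 to 3504 in young mice (median 2349) and 2195 to 3377 in old mice (median 2762), a log2 difference of 0.16 ± 0.128 (limma adjusted p = 0.885). The highest young value was M1, without which the difference was 0.25 ± 0.104 (limma unadjusted p = 0.0313, adjusted p = 0.867). Srebf1 ran from 2934 to 5463 (median 3606) and 3365 to 4392 (median 3943), a difference of 0.08, again with M1 highest, and 0.18 without it. Srebf2 ran from 11218 to 13976 (median 11877) and 10613 to 13076 (median 12260), a difference of 0.01, and Scap from 5409 to 5812 (median 5661) and 5194 to 6190 (median 5499), a difference of -0.02. Groups overlapped in all 31 members, while 0.403% of all genes were higher and 0.102% lower without overlap. Without young M1, 18 of 31 estimates lay above 0, beside 47.3% of all genes, and 5 of 16579 genes were called (0.0302%), none of them a member.

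The effect of age was set against sex. No member passed with the interaction term (0% of all genes), and 2 had an unadjusted p under 0.05, where 4.39% of all genes did. Stard4 held 370, 387 and 399 in young females and 518, 417 and 382 in old females. In males it held 525, 504 and 466 when young and 338, 362 and 367 when old. So old males lay below young males without overlap while females overlapped. With 3 libraries a side this is a description, and the share of all genes that separate within 1 sex was not counted. The difference of effects, male minus female, was -0.66 (limma unadjusted p = 0.00303, adjusted p = 0.983). Sqle gave -0.30 (limma unadjusted p = 0.05, adjusted p = 0.983). In the other 3 comparisons 0 members had an unadjusted p under 0.05 for this term, beside 4.71%, 5.1% and 4.52% of all genes in the order old treated, APP/PS1 and APP/PS1 treated.

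Nanoligomer in old mice was compared with untreated old mice, a group it shares with the age comparison, so the pair are not independent. Estimates lay above 0 for 10 of 31 members, beside 49% of all genes, with a median of -0.04. At an unadjusted p under 0.05, 0 members were higher and 2 lower, where 3.62% of all genes were higher and 3.6% lower. All 4 sensing genes (median -0.07) and all 3 fatty acid genes (median -0.08) had estimates below 0, the mevalonate steps 6 of 8 and the ring steps 7 of 12. Carriage, export and turnover genes had 3 of 4 above 0 (median 0.04).

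Hsd17b7 (chr1:169949535-169969241, minus strand) ran from 594 to 717 in old mice (median 654) and 494 to 636 in treated mice (median 582). Means were 650 ± 48.5 and 568 ± 54.4, a log2 difference of -0.20 ± 0.086 (limma adjusted p = 0.678). Mvd, the mevalonate diphosphate decarboxylase (chr8:122433601-122443422, minus strand), ran from 731 to 1193 (median 774) and 587 to 811 (median 694). The top value was old M3, which stood apart. Means were 840 ± 175 and 694 ± 97.0, a log2 difference of -0.27 ± 0.122 (limma adjusted p = 0.678), and -0.17 without old M3. Both genes overlapped between groups.

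Dhcr7, which completes cholesterol from its 7-dehydro precursor, ran from 1457 to 1771 in old mice (median 1548) and 1233 to 1636 in treated mice (median 1362), a log2 difference of -0.16 ± 0.082 (limma adjusted p = 0.679). Acat2 went the other way in its estimate, from 806 to 1029 (median 888) and 851 to 1131 (median 994), a difference of 0.14 ± 0.084 (limma adjusted p = 0.705). Both overlapped. Srebf1 ran from 3148 to 4106 (median 3684) and 3139 to 3743 (median 3308), a difference of -0.10. Insig1 ran from 2051 to 3157 (median 2581) and 2032 to 3099 (median 2374), a difference of -0.09. Srebf2 gave -0.01 and Scap -0.04, and the ranges of all 31 members overlapped, beside 0.121% of all genes higher and 0.133% lower without overlap.

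Nanoligomer in APP/PS1 mice was compared with untreated APP/PS1 mice, 6 libraries against 5, again sharing a group with the transgene comparison. Estimates lay above 0 for 18 of 31 members, beside 49.4% of all genes, with a median of 0.02. At an unadjusted p under 0.05, 0 members were higher and 0 lower, where 1.45% and 1.51% of all genes were. The mevalonate steps had 6 of 8 above 0 and the ring steps 7 of 12.

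Sc5d (chr9:42251595-42264256, minus strand) ran from 826 to 1061 in APP/PS1 mice (median 941) and held 901, 1011, 1278, 1215 and 1130 in treated F1, F2, M1, M2 and M3. The column taken as M3 differs in 1 letter from that sample's title. The 3 treated males lay above every untreated library and the 2 treated females among them. How many of all genes show such a split was not counted. Means were 953 ± 86.0 and 1107 ± 153, a log2 difference of 0.20 ± 0.097 (limma adjusted p = 0.997). Without APP/PS1 F1 it was 0.23 ± 0.093 (limma unadjusted p = 0.0281, adjusted p = 0.999).

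Msmo1, the C4 methyl sterol oxidase, ran from 1244 to 1696 in APP/PS1 mice (median 1418) and 1316 to 1727 in treated mice (median 1582), a log2 difference of 0.14 ± 0.093. Nsdhl ran from 492 to 699 (median 612) and 595 to 698 (median 649), a difference of 0.11 ± 0.088, and Hsd17b7 from 371 to 528 (median 482) and 429 to 565 (median 545), a difference of 0.14 ± 0.114. The limma adjusted p was 0.997 for each of these, and the groups overlapped. Without APP/PS1 F1 Msmo1 gave 0.09, Hsd17b7 0.08 and Nsdhl 0.11. Srebf1 ran from 1937 to 3389 (median 2209) and 1734 to 2403 (median 2031), a difference of -0.16 ± 0.138. With APP/PS1 F1, its highest library, left out the difference was -0.06. Srebf2 gave 0.09, Insig1 0.11 and Scap -0.02. The ranges of all 31 members overlapped, beside 0.155% of all genes higher and 0.155% lower without overlap. Without F1, 20 of 31 estimates lay above 0, beside 49.4% of all genes, and 0 of 16082 genes were called.

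Effects were set against each other where the comparisons share no library. Nanoligomer in APP/PS1 mice minus nanoligomer in old mice gave 0 members past the threshold (0% of 15990 genes) and 2 at an unadjusted p under 0.05, beside 4.35% of all genes. These were Hsd17b7, at -0.20 in old and 0.14 in APP/PS1 mice (difference 0.33 ± 0.138, limma unadjusted p = 0.0248, adjusted p = 0.918; the APP/PS1 value was 0.08 without APP/PS1 F1, where the difference was not tested), and Sc5d (difference 0.24 ± 0.103, limma unadjusted p = 0.0323, adjusted p = 0.918). The transgene effect minus the age effect gave 0 members past the threshold, when 7 of 16300 genes were called (0.0429%), and 5 at an unadjusted p under 0.05, beside 11.8%. The 5 were Sqle, Stard4, Fdft1, Acat2 and Sc5d, all with positive differences from 0.23 to 0.51 and limma adjusted p-values from 0.349 to 0.403.

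The other genes of these pathways, taken from 4 lists, gave 0 calls by limma in each comparison. Among 24 other genes of fatty acid synthesis, elongation and desaturation, estimates were above and below 0 in 7 and 17 with age, 6 and 18 in treated old mice, 13 and 11 with the transgenes and 13 and 11 in treated APP/PS1 mice. Thrsp, a nuclear regulator of lipogenesis, had the lowest of these estimates with the transgenes, at 664 ± 85.4 in littermates and 420 ± 115 in APP/PS1 mice (log2 difference -0.70 ± 0.170, limma adjusted p = 0.207, DESeq2 adjusted p = 0.0215). In treated old mice Thrsp gave -0.50 ± 0.222 (limma adjusted p = 0.678). Acly, which supplies cytosolic acetyl-CoA, stood at 5223 ± 257 and 6756 ± 2153 with the transgenes, a difference of 0.32 ± 0.133 (limma adjusted p = 0.427) and 0.18 without APP/PS1 F1.

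Among 10 measured genes of SREBP processing and degradation the split was 5 and 5 with age, 4 and 6 in treated old mice, 2 and 8 with the transgenes and 7 and 3 in treated APP/PS1 mice. Insig2, the second INSIG, gave -0.20 ± 0.083 (limma adjusted p = 0.444) with the transgenes, and Erlin1, a sterol-dependent degradation factor, 0.28 ± 0.092 (limma adjusted p = 0.329). Among 19 measured genes of other sterol and isoprenoid branches the splits were 8 and 11, 12 and 7, 12 and 7, and 6 and 13. Coq2, which attaches the isoprenoid tail of coenzyme Q, gave 0.16 ± 0.064 with age (limma adjusted p = 0.722).

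Among 25 genes of sterol uptake, export and the LXR receptors the splits were 13 and 12, 8 and 17, 12 and 13, and 11 and 14. Apod, a lipid carrier of glia, stood at 5941 ± 1328 in young and 8832 ± 2166 in old mice (log2 difference 0.57 ± 0.174, limma adjusted p = 0.587). Lcat, which esterifies lipoprotein cholesterol, gave -0.31 ± 0.095 and Pltp, the phospholipid transfer protein, -0.35 ± 0.128 in treated old mice (limma adjusted p = 0.678 for each). Cyp7b1, an oxysterol hydroxylase, gave -0.42 ± 0.145 with the transgenes (limma adjusted p = 0.352). None of these passed the test.

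Because groups differed little, the members were next compared from library to library within groups. Each gene's log2(CPM + 0.1) was expressed as its deviation from the mean of its group and sex, and the 465 pairs of members were correlated over 35 libraries, with permutation within the 12 strata of group and sex. The median r was 0.22, beside 0.02 for all pairs of the 10282 genes with levels in the members' range, and 15.7% of member pairs had r above 0.5, beside 5.39%. In the other direction 1.08% had r below -0.5, beside 4.65%. After Benjamini-Hochberg adjustment over the 465 pairs, 23 passed, 23 positive and 0 negative. Libraries share depth and tissue composition, so pairs share these too.

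**Figure D4:**
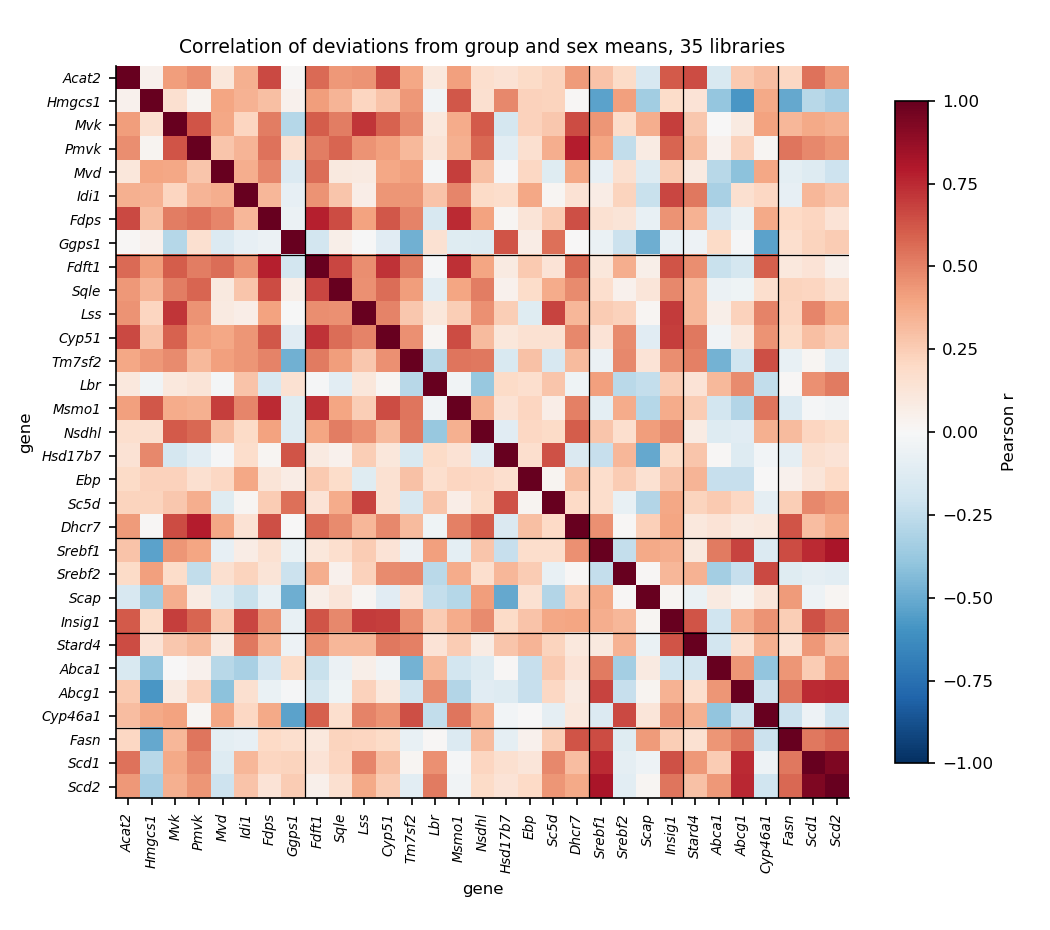
Pearson correlation of the 31 genes within group and sex over 35 libraries, genes ordered by role. Of 465 pairs, 73 have r above 0.5 and 5 have r below -0.5. Fdft1 and Insig1 have the most partners above 0.5, 12 and 10 of 30.

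The closest pair was Scd1 and Scd2, with Pearson r of 0.937 and Spearman rho of 0.894. Both permutation p-values were 1e-05, the smallest that the 100000 permutations can give, and the adjusted p was 0.0046 for each. Leaving out the 2 libraries farthest from the median of Scd1 gave r of 0.894, and the aging and transgenic arms alone 0.956 and 0.911. Without young M1 and APP/PS1 F1 r was 0.847. In other pairs too the 2 farthest libraries were taken from 1 gene, Fdft1 with Fdps and Hmgcs1 with Srebf1 and Abcg1. The desaturases are neighbouring paralogs on chromosome 19, and reads shared between them by the counting cannot be told apart.

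Among the other pairs that passed, some joined steps of the sterol route. Fdps, which makes farnesyl diphosphate, and Fdft1, which uses it, had r of 0.778 and rho of 0.779 (permutation p = 0.00023 and 0.0001, adjusted p = 0.017 and 0.014), 0.687 without the 2 farthest libraries and 0.762 without young M1 and APP/PS1 F1. Fdps and Msmo1 had r of 0.749 and rho of 0.716 (permutation p = 0.00049 and 0.00067, adjusted p = 0.021 and 0.023), and 0.873 without those libraries. Exons of Fdps share 26.7% of their length with the gene Gm43738 on the same strand. Insig1 and Lss, the lanosterol synthase, had r of 0.698 and rho of 0.721 (permutation p = 3e-05 and 4e-05, adjusted p = 0.007 and 0.0093), and 0.642 without those libraries.

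Some pairs leaned on the libraries that stood apart. Srebf1 and Scd2, a factor and a target of it, had r of 0.813 and rho of 0.720 (permutation p = 0.00044 and 0.00049, adjusted p = 0.021 for each), but r was 0.518 without young M1 and APP/PS1 F1 (adjusted p = 0.079). Dhcr7 and Pmvk, the phosphomevalonate kinase, had r of 0.788 and rho of 0.730 (permutation p = 0.00041 and 0.00042, adjusted p = 0.021 and 0.020), and 0.585 without those libraries (adjusted p = 0.061). In all, 16 pairs passed without the 2 libraries.

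Some members stood outside this pattern. Median r with the other 30 members was 0.435 for Fdft1 and 0.421 for Insig1, but 0.017 for Scap, -0.031 for Ggps1, which makes geranylgeranyl diphosphate, and -0.048 for Abca1. Hmgcs1 had just 1 partner above r of 0.5. With Srebf1 its r was -0.535 and rho -0.385 (permutation p = 0.11 and 0.093, adjusted p = 0.33 and 0.28), and with Abcg1, a sterol exporter, r was -0.581 and rho -0.403 (permutation p = 0.037 and 0.045, adjusted p = 0.17 and 0.19). In the aging arm the Hmgcs1 and Abcg1 value was -0.07 and in the transgenic arm -0.86. These did not pass, and r was -0.284 and -0.270 without the 2 farthest libraries.

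**Figure D5:**
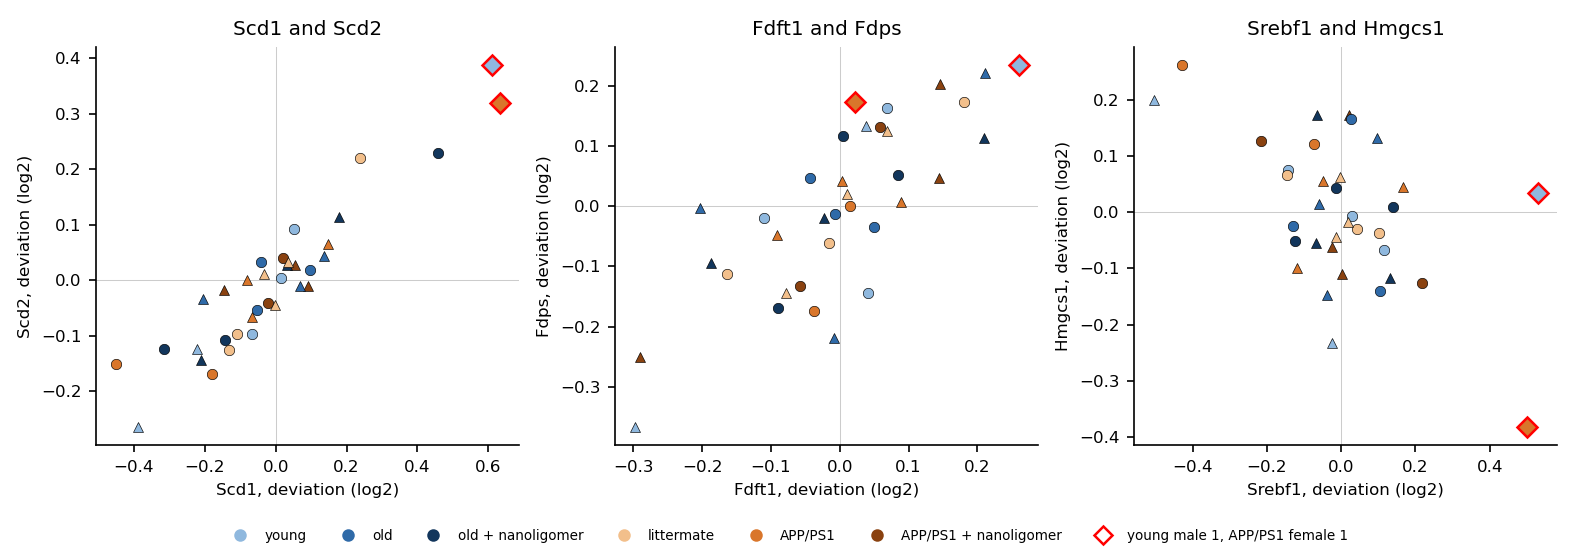
Deviations of log2 CPM from the mean of the group and sex for Scd1 and Scd2, Fdft1 and Fdps, and Srebf1 and Hmgcs1, 1 point a library, with circles for females and triangles for males. Diamonds mark young M1 and APP/PS1 F1, which have the 2 highest deviations of Scd1 and of Srebf1. The r values are 0.937, 0.778 and -0.535.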

How the data were processed

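RNA-seq of mouse hippocampus was used as 4 tables of 12 libraries, 12 of which stand in 2 tables. The authors deposited counts divided by size factors, a normalized signal with no whole reads shown, and each table was scaled on its own. STAR, DESeq2 and the build mm10 are named per the submitters' processing notes. Counter, annotation and strand setting: not given in the sources used here. Dividing by what 1 read is worth gave whole reads within 0.001 for every value, from which depth and CPM were taken. Each deposited table was fitted with limma 3.58.1 (R 4.3.3, trend) on log2(value + 1), genes with a mean of at least 10, sex and group as terms, called at an adjusted p under 0.05. edgeR 4.0.16 and DESeq2 1.42.0 on the recovered reads, other filters, pseudocounts and scalings, a replicate block, and leaving out each library were alternatives. The limma, edgeR and DESeq2 fits with a sex term, the difference of treatment effects and the correlation step were tested on simulated data. The sex interaction and the other alternatives were not. Levels per kilobase used GENCODE exons of GRCm38, and promoters RefSeq entries of GRCm38.p6. No column was left out (0). The replicate labels did not pair the libraries: the correlation of same-label deviations ran from -0.247 to 0.294.

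The genes and lists were chosen with earlier results of these data known. Values are given for called members and otherwise for the 4 with the smallest p in a comparison, and always for Srebf1, Srebf2, Scap and Insig1. From each of the 4 pathway lists up to 2 genes with the smallest p were eligible. Correlations, their alternatives and the pairs named were chosen after seeing the data. The 10 marker lists cover myelinating oligodendrocytes, their precursors, astrocytes, microglia, neurons, endothelial cells, choroid plexus, meningeal fibroblasts, striatum and hippocampal neurons.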

Additional observations from a re-analysis of the deposited data

Results flagged for a closer look

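In 23 of the 186 sets of values of 1 member in 1 group, the highest or lowest library stood apart from the others by Dixon's test at the 95% level. For independent, normally distributed values chance gives about 1 in 20. Members vary together and several flags fall in the same library. The share over all genes was not counted, so the 23 are a description and not an excess particular to these genes. Of these, 6 were in young M1, 5 in old M3 and 3 in APP/PS1 F1. All values are CPM.

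Young M1 was high for Sqle at 71.3 (others 51.4 to 58.9), Insig1 at 93.0 (50.2 to 60.3), Pmvk at 49.9 (29.6 to 33.6), Fasn at 542.6 (406.9 to 419.3), Scd1 at 405.4 (183.6 to 227.5) and Scd2 at 2194 (1396 to 1607). The list therefore holds both desaturases and the synthase that feeds them. The same library had choroid plexus markers at 4215 and hippocampal neuron markers at 872. Their part in these values was not tested.

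Old M3 was high for Lss at 44.0 (33.4 to 36.5), Msmo1 at 76.9 (50.5 to 58.5), Dhcr7 at 46.7 (39.2 to 41.4), Mvd at 31.5 (18.9 to 21.6) and Cyp46a1 at 379 (188 to 253). The first 4 make cholesterol and the last removes it. APP/PS1 F1 was high for Srebf1 at 131 (68.6 to 87.8), Abcg1 at 127 (85.6 to 99.3) and Scd2 at 1956 (1248 to 1413).

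The other 9 values were spread over 8 libraries. Old treated M1 was high for Hmgcs1 at 212 and low for Fasn at 314, and old treated F2 was high for Nsdhl at 28.7. Littermate F2 was high for Srebf2 at 289, F1 for Tm7sf2, a C14 sterol reductase, at 17.1 and F3 for Lbr at 11.6. APP/PS1 treated M3 was low for Cyp51, the lanosterol demethylase, at 32.9, F1 low for Pmvk at 23.96 and F2 high for Nsdhl at 25.9.

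The shallow library, APP/PS1 treated F3, lay above the range of untreated APP/PS1 mice for 8 members and below it for the other 23, of which 15 had no read. It held Lbr at 229 CPM (9.09 to 12.4 in APP/PS1 mice), Insig1 at 176 (40.1 to 69.0), Abcg1 at 145 (85.6 to 127), Sqle at 135 (50.4 to 60.9), Sc5d at 130 (29.0 to 40.0), Ggps1 at 104 (25.8 to 33.3), Ebp, a sterol isomerase, at 101 (9.02 to 11.5) and Hsd17b7 at 43.8 (14.3 to 18.7). With 0.913 M reads, 0 counts allow up to 3.285 CPM (3 reads), for counting error only. In this library 9509 genes of all kinds had reads, against 17650 to 18611 in the other treated APP/PS1 libraries. Its marker sums differed too. Myelinating oligodendrocyte markers were at 64.6 CPM (4757 to 6783 in APP/PS1 mice), neuron markers at 658 (5173 to 8533) and astrocyte markers at 900 (5220 to 7360). Endothelial markers stood above the range at 757 (220 to 262), and striatal markers within it at 242 (163 to 2357). Their part in the member values was not tested. The share of all genes above or below the range was not counted, so the counts of members are a description.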

How the results depend on the processing

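Over 92 results and 1616 alternative values, 1562 were taken as unchanged and 25 changed direction. A fold change or correlation was unchanged if it kept its direction and its side of the threshold. A count was unchanged if it was equal or within 1.5-fold. No member was called under the other filters, pseudocounts, TMM scaling, edgeR, no sex term or the replicate block, which gave 0 in each of the 4 comparisons. No other call changed under the block, and the labels did not pair the libraries. With the transgenes, DESeq2 called 1 member (Fdft1), when it called 253 genes against 8 by limma, and the fit without APP/PS1 F1 called 1 (Hmgcs1), so leaving out single libraries gave 0 to 1. DESeq2 called 123 genes against 6 with age. The cause was not tested. The count of estimates above 0 ran from 8 (without old M3) to 19 with age, 8 to 12 in treated old mice, 25 to 28 with the transgenes and 13 to 22 in treated APP/PS1 mice.

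Without young M1, 6 of the 31 members changed sign with age, without APP/PS1 F1 3 did with the transgenes and 2 in treated APP/PS1 mice. Among the genes named by rule, leaving out single libraries turned estimates near 0. With age Srebf2 ran from -0.012 to 0.0549 and Srebf1 from -0.0185 to 0.181, in treated old mice Srebf2 from -0.059 to 0.0108, with the transgenes Scap from -0.0124 to 0.0194 and Srebf1 from -0.0777 to 0.103, and in treated APP/PS1 mice Scap from -0.0372 to 0.0245. Other values of these that changed sign were Srebf2 with age at -0.00581, -0.00763, -0.0101 and -0.0107, Srebf2 in treated old mice at 0.00811, Scap with the transgenes at -0.00366, -0.00105, -0.00244, -0.0102 and -0.00383, and Srebf1 at -0.0121. Scap by edgeR was -6.49e-06. Keeping the shallow library left 7 of 31 estimates above 0 and gave Msmo1 -1.64, Nsdhl -1.46, Srebf2 -0.461, Elovl4 -0.0634, Mbtps2 -0.0682, Erlin1 0.235 and Dhdds -0.367.

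Of the member pairs, 23 passed in all libraries, 16 with size factors, 24 with a pseudocount of 1 CPM and 16 without young M1 and APP/PS1 F1. In the aging arm alone 4 passed and in the transgenic arm alone 0, with 18 and 17 libraries. These alternatives were chosen after seeing the data. Depth was 27.6 M reads or more outside the shallow library.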

Other observations

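Levels of 7 members were set against the markers of 10 cell types or regions, within group and sex over 35 libraries (70 relations, permutation within strata, adjusted over the 70). Each list was scored as the mean of its genes' log2 deviations, each gene counting alike, and not as the CPM sum. The 2 farthest libraries are again those farthest from the median of that score. Scd2, which desaturates fatty acids for myelin lipids among others, went with myelinating oligodendrocyte markers at r of 0.639 and rho of 0.687 (permutation p = 0.00071 and 0.00013, adjusted p = 0.050 and 0.0091). Without the 2 farthest libraries r was 0.636, and in the aging and transgenic arms 0.647 and 0.626. Without young M1 and APP/PS1 F1 it was 0.726.

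Cyp46a1, the neuronal hydroxylase, had r of 0.441 and rho of 0.488 with the general neuron markers (permutation p = 0.006 and 0.013, adjusted p = 0.084 and 0.13), and -0.728 and -0.646 with the hippocampal neuron markers (permutation p = 0.0027 and 0.0024, adjusted p = 0.067 and 0.068). Without the 2 farthest libraries these r values were 0.519 and -0.629. Abca1 had r of 0.804 and rho of 0.609 with oligodendrocyte precursor markers (permutation p = 0.0029 for each, adjusted p = 0.067 and 0.068), and 0.566 without the 2 farthest. These did not pass after adjustment.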
